A study of Mus musculus with 46 samples.

Results

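The genes described here are 57 genes of the cell cycle, taken by symbol from a list of S phase and G2/M genes; they are 57 of the 19521 genes of a mouse RNA-seq count table, and the rule that picks them uses symbols only. By role they are 12 genes of replication licensing and the replication fork, 4 of nucleotide supply, 6 cyclins of the E, A, B and F types, 3 D-type cyclins, 4 cyclin-dependent kinases, 3 CDC25 phosphatases, 3 genes of the anaphase promoting complex and separase, 6 mitotic kinases and checkpoint genes, 11 genes of the spindle, kinetochore and chromosome, and 5 transcription factors. RNA came from primary T-lineage cells of C57BL/6 mice that either carried LMO2 under human CD2 control (genotype label hCD2-LMO2 knock-in, TG) or were wild type (WT). Cells had been sorted from the thymus as DN1, DN, DN3 (CD25+), DP, CD4SP or CD8SP thymocytes, stages that run from CD4-CD8- precursors through CD4+CD8+ cells to single-positive cells, and TG animals also gave splenic CD4+ and CD8+ T cells. Each group had 3 libraries except WT DN1, which had 1, for 40 libraries in all. Human CD2 control elements drive transgenes throughout the T lineage. The ages of the mice were not given in the sources used here, and no label says that the libraries of a group came from separate mice, so p-values measure the spread between these libraries, which may be technical.

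Progress through the cell cycle depends on waves of transcription. D-type cyclins with CDK4 or CDK6 release E2F factors, which switch on cyclin E, the MCM helicase that licenses replication origins and the enzymes that make DNA precursors; later, the MYB-MuvB complex and FOXM1 switch on cyclin B, mitotic kinases and spindle genes, and CDC25 phosphatases activate the kinases. In the thymus, precursors divide strongly after the pre-T-cell receptor signals at the end of the DN3 stage, whereas most DP cells and most mature single-positive cells rest.

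The markers of the libraries were set against their labels. Total counts were 17211426 to 28842773 per library, and the 57 genes took between 0.251% and 2.16% of them. Mouse Lmo2, as CPM (read counts scaled to a common library size, with TMM factors), was 16.7 to 78.8 in 14 of the 15 TG libraries from the DN stage to the CD8SP stage, against 0.119 to 4.31 in the 15 WT libraries. The exception was the library labelled TG DP replicate 3, with 0.395 CPM, against 78.8 and 70.0 CPM in the other TG DP libraries and 0.473, 0.119 and 0.237 CPM in WT DP. At DN1, Lmo2 stood at 36.4, 38.7 and 45.1 CPM in TG and at 31.7 CPM in WT. The DN1 libraries also held B-cell markers, with sums of 941, 613 and 719 CPM in TG and 1424 CPM in WT. Their mature T-cell markers summed to 1771, 1739 and 1831 CPM in TG and 1935 CPM in WT. Cd4 was at 423, 689 and 531.5 CPM in TG DN1 and 548 CPM in WT DN1. The part of these markers in the members' DN1 values was not tested.

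The 3 libraries labelled TG CD4SP did not show the markers of mature CD4 cells. Ccr7, a homing receptor of mature T cells, was 39.3, 8.26 and 97.5 CPM there, against 429, 443 and 427 CPM in WT CD4SP. Cd8a, which CD4SP cells should lack, was 92.1, 3093 and 804 CPM in the TG libraries, against 46.9, 43.5 and 148 CPM in WT. Replicate 1 also held Cd4 at only 190.1 CPM with Il2ra, the CD25 marker of DN3 cells, at 348 CPM, and replicate 2 held the recombinase gene Rag1 at 6487 CPM. In CD8SP, the libraries numbered 3 of both genotypes carried the most Rag1, at 1295, 717 and 6083 CPM in TG and 650.1, 468 and 3026 CPM in WT. In the spleen, B-cell markers summed to 3671, 807 and 560.1 CPM in CD8 and 1024, 541 and 2056 CPM in CD4 libraries. Of the 40 count columns, 12 bear a suffix N that the labels do not explain. In these bulk samples, fewer cells of a type and less RNA per cell cannot be told apart.

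All 57 members passed the filter on low counts in each of the 13 comparisons. Their summed level was low at both ends of the series. It was 4783, 5155 and 5028 CPM in TG and 4490 CPM in WT at DN1, and 4119, 4137 and 2928 CPM in TG splenic CD4 and 2543, 3749 and 3693 CPM in TG splenic CD8 cells. The highest sums were those of CD8SP, with 22029, 23548 and 15348 CPM in TG and 15782, 14688 and 14093 CPM in WT. The libraries labelled TG CD4SP held 14486, 16867 and 8304 CPM, whereas the WT CD4SP libraries, at 3595, 3677 and 5022 CPM, were close to DN1. Among the WT groups, 37 of the 57 members had their highest mean in CD8SP and 42 had their lowest mean in CD4SP.

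**Figure D1:**
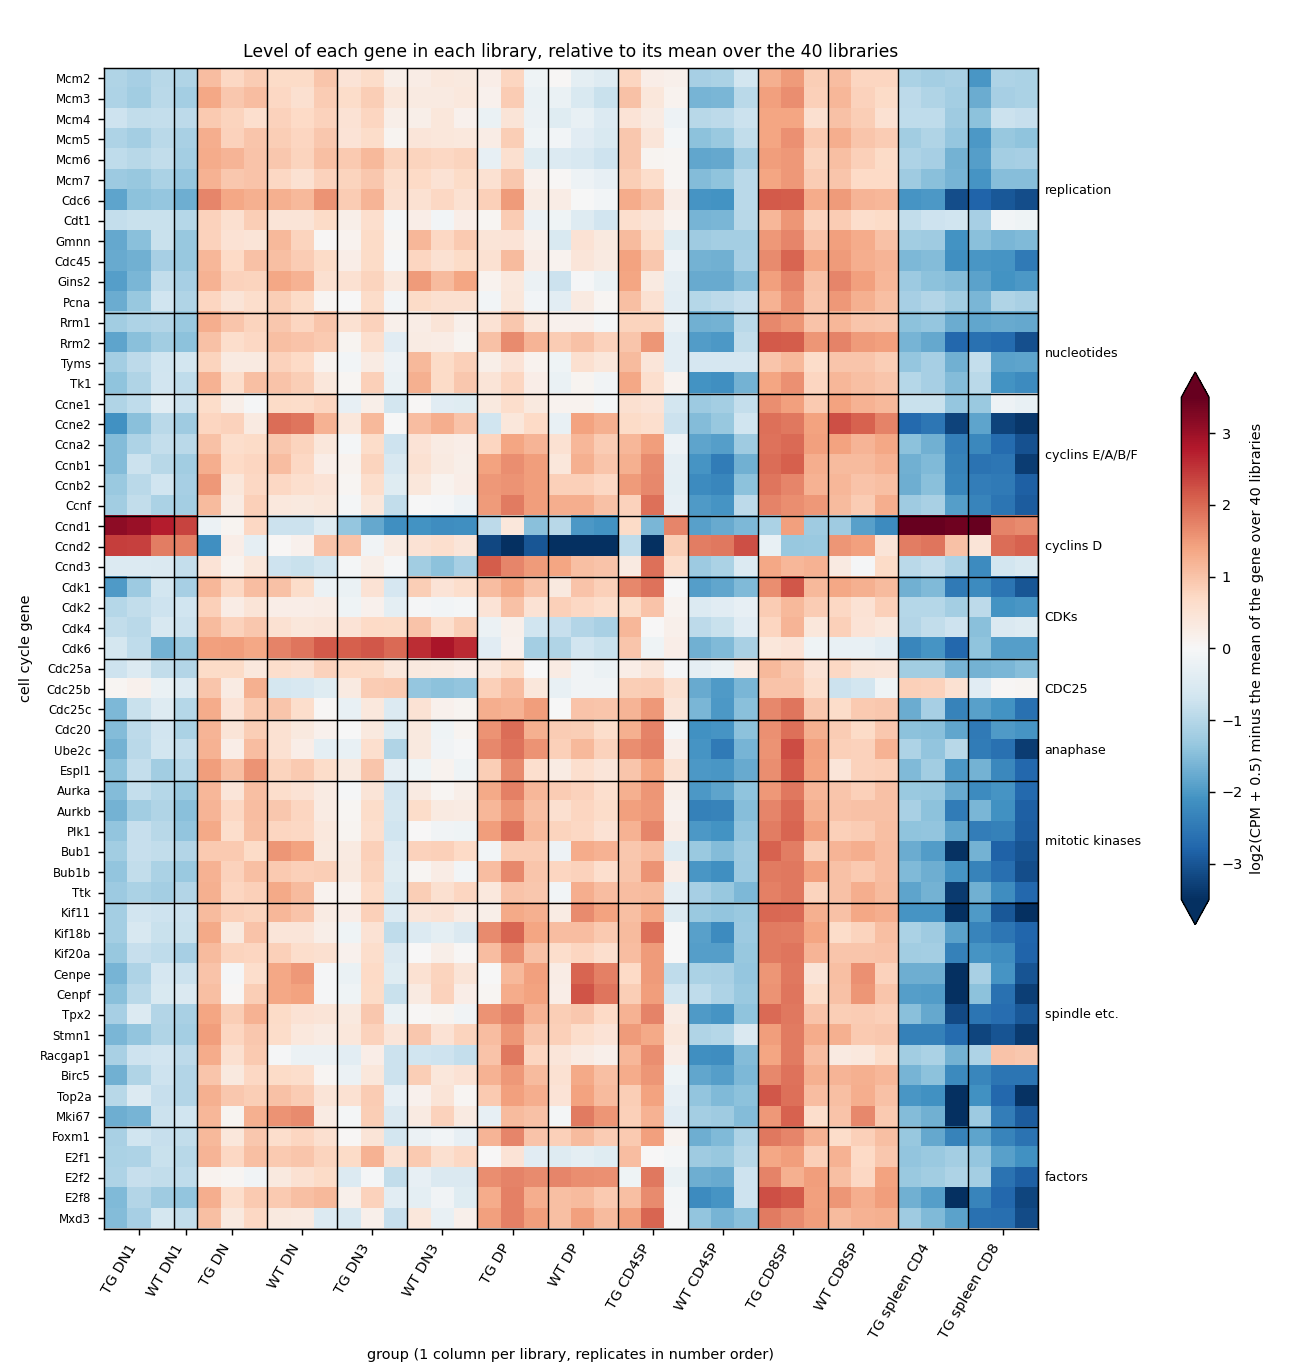
Level of each of the 57 genes (rows, ordered by role) in each of the 40 libraries (columns, TG left of WT at each stage), as log2(CPM + 0.5) minus the gene's mean over the libraries, red for higher and blue for lower. The DN1, WT CD4SP and spleen libraries are blue for most genes and red for Ccnd2, and libraries 1 and 2 of those labelled TG CD4SP are red for most genes, as DP and CD8SP are.

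Members differed widely in level. Per transcript length (FPKM, mean ± SD, n = 3 each), Ccnd3, the D-type cyclin of the thymus, led in WT DP at 968 ± 81.8 FPKM, ahead of the microtubule regulator Stmn1 at 626 ± 45.3 FPKM and the replication clamp Pcna at 331 ± 92.5 FPKM. The other D-type cyclins were near the bottom there, Ccnd2 at 2.49 ± 0.443 FPKM and Ccnd1 at 0.64 ± 0.312 FPKM. In WT DN3 the leaders were Stmn1 at 766 ± 117 FPKM, Pcna at 549 ± 22.6 FPKM and the G1 kinase gene Cdk4 at 438 ± 60.5 FPKM. Across the WT groups the widest span in mean CPM was that of Ccnd2, at 864 CPM in CD4SP and 14.6 CPM in DP, a ratio of 59.1, and the narrowest was that of Cdk2, with a ratio of 2.72.

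The WT stages were compared to set the scale on which the genotype differences lie. Relative to WT DN3, WT DP libraries had lower levels of the replication genes and higher levels of many mitotic genes. With edgeR's quasi-likelihood test at a Benjamini-Hochberg adjusted p under 0.05 over all genes tested, 25 of the 57 members were higher and 18 lower in DP. Of all genes tested, 28.6% were higher and 31.4% lower; all 12 replication genes among the members fell, and none of the 20 members among the mitotic kinases, the spindle genes and the anaphase genes did.

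Mcm6, a subunit of the helicase loaded at origins, was measured at 298, 286 and 254 CPM in WT DP and at 713, 698 and 714 CPM in WT DN3. Gins2, a subunit of the active helicase, was at 7.80, 13.1 and 11.5 CPM in WT DP and 38.9, 30.1 and 35.9 CPM in WT DN3. For both genes every DP library lay below every DN3 library, and the log2 fold changes were -1.36 ± 0.15 (SE; adjusted p = 7.27e-05) and -1.71 ± 0.20 (adjusted p = 0.000108) by edgeR. The other MCM genes fell by less, -0.84 on the log2 scale for Mcm3, -0.77 for Mcm7 and -0.57 for Mcm2. In nucleotide supply, thymidine kinase Tk1 and thymidylate synthase Tyms fell, at -1.08 ± 0.18 and -0.62 ± 0.20, but Rrm2, the regulated subunit of ribonucleotide reductase, rose by 0.66 ± 0.15 (adjusted p = 0.00383, edgeR).

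The 3 largest changes among the members were in genes of G1. Ccnd2 stood at 15.3, 16.8 and 11.7 CPM in WT DP, against 309, 331 and 295 CPM in WT DN3. Cdk6, a kinase partner of the D-type cyclins, was at 101, 133 and 124 CPM in DP, against 1285, 1536 and 1292 CPM in DN3. Ccnd3 went the other way, with 2090, 1673 and 1607 CPM in DP and 348, 295 and 361 CPM in DN3. The fold changes were -4.43 ± 0.20, -3.54 ± 0.18 and 2.41 ± 0.19 on the log2 scale, with no overlap between the stages for any of the 3 genes. Cdk4 fell too, at -1.82 ± 0.18. Among the transcription factors E2f1, an activator of S phase genes, fell by 1.17 ± 0.14, whereas E2f2 and E2f8, an activator and a repressor of the same family, rose by 2.07 ± 0.15 and 1.32 ± 0.14.

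On the mitotic side, Ccnf, a cyclin that serves a ubiquitin ligase, was measured at 127, 126 and 107 CPM in WT DP and 51.2, 49.9 and 45.5 CPM in WT DN3. Kif18b, a kinesin that trims spindle microtubules, was at 85.7, 85.1 and 76.7 CPM in DP and 28.5, 31.3 and 28.4 CPM in DN3. Both rose without overlap, by 1.28 ± 0.14 and 1.47 ± 0.13 (adjusted p = 7.75e-05 and 2.18e-05, edgeR). Cdc25b, a phosphatase that activates CDK1, rose by 1.21 ± 0.12, the mitotic kinase gene Plk1 by 0.76 ± 0.14, and Racgap1, needed for cytokinesis, by 1.04 ± 0.14. In all, 4 of 6 cyclins, 3 of 3 anaphase genes, 3 of 6 mitotic kinase and checkpoint genes and 7 of 11 spindle genes rose. Some genes of the chromosome and kinetochore varied strongly between replicates: Mki67, a proliferation marker that coats chromosomes, was at 399.5, 1480 and 1225 CPM in WT DP and 528, 742 and 527 CPM in WT DN3, so the stages overlapped.

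Other cell cycle genes were counted beside the members. Of 30 other S phase genes 27 fell and none rose in WT DP, and of 39 other G2 and M phase genes 16 rose and 2 fell. Of 12 measured brakes of the cell cycle 9 rose and 1 fell: the retinoblastoma relative Rbl2 averaged 233 CPM in DP and 56.4 CPM in DN3, the CDK inhibitor Cdkn1b 275 CPM in DP and 62.5 CPM in DN3, and the inhibitor Cdkn1a 1.497 CPM in DP and 59.5 CPM in DN3. Of the 43 calls among the members, 29 held in every fit that left out 1 library, and a single fit of all 40 libraries gave 12 rises and 13 falls. The share of all genes called in that single fit was not counted.

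The promoters of the members that moved together were read because the 2 waves are known from different promoter elements. RefSeq windows (build GRCm38.p6, 250 bases before to 50 after the annotated start, read 5′ to 3′ on the gene's strand) were found for 44 of the 57 members. The letters searched, on both strands, were TTTCCCGC, TTTGGCGC, TTTCGCGC and TTTGCCGC for an E2F-type site, CCAAT for the CCAAT box bound by NF-Y, and TTTGAA or TTCGAA for the cell cycle gene homology region bound by the MuvB complexes. The windows of 2 replication genes that were lower in WT DP, and of 3 genes of mitotic entry, show the 2 kinds of arrangement, with the matched letters in capitals.
Mcm6: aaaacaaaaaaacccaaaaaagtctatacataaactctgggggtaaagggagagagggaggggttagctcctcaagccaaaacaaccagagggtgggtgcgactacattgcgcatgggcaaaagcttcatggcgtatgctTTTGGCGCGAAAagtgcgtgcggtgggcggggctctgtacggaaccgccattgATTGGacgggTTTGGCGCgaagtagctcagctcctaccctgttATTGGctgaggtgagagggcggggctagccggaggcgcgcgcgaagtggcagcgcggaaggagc
Mcm3: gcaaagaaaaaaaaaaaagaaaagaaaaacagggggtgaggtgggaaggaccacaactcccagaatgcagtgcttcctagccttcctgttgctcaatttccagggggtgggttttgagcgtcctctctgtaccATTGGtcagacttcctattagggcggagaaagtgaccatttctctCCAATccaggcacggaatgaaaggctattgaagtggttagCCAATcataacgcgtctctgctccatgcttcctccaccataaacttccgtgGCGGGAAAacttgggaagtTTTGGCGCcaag
Plk1: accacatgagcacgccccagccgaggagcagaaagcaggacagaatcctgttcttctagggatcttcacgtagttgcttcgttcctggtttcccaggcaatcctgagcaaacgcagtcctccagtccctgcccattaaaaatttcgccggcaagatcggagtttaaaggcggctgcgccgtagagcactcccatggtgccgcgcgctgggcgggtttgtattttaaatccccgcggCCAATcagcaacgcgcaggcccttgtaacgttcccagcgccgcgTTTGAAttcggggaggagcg
Ccnb2: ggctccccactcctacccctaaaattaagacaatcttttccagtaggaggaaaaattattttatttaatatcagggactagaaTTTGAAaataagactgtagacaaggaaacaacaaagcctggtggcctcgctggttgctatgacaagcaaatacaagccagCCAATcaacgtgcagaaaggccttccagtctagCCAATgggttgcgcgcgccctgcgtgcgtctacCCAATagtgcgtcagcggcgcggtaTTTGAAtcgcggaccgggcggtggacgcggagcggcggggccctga
Cdc25b: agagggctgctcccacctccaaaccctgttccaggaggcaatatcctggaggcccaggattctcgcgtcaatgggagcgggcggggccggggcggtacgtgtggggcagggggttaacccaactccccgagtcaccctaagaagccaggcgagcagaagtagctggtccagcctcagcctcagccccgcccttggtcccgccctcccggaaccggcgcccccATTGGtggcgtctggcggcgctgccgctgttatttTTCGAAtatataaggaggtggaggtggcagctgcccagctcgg
The windows lie at chr1:128359656-128359955 on the minus strand (Mcm6), chr1:20820263-20820562 on the minus strand (Mcm3), chr7:122159185-122159484 on the plus strand (Plk1), chr9:70421505-70421804 on the minus strand (Ccnb2) and chr2:131186698-131186997 on the plus strand (Cdc25b). Mcm6 held 3 E2F-type matches, 2 of them overlapping, that began 110, 106 and 47 bases before the start, and Mcm3 held 2 that began 19 and 38 bases after it. Plk1, Ccnb2 and Cdc25b held none; each had a cell cycle homology region match, beginning 30, 4 and 7 bases after the start, and a CCAAT match upstream of it, beginning 14, 21 and 28 bases before the start. Ccnb2 had 2 further CCAAT matches and 1 further TTTGAA.

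E2F-type letters stood in 22.7% of the members' windows and in 2.32% of the windows of 27025 genes. They stood in 6 of the 13 replication and nucleotide genes with a window (46.2%) and in 0 of the 20 with a window among the cyclins, mitotic kinases, anaphase and spindle genes. CCAAT together with a cell cycle homology region match stood in 16 of those 20 windows (80%), in 3 of the 13 (23.1%) and in 7.7% of all genes' windows. In WT DP against WT DN3, 6 of the 10 members with E2F-type letters fell and 2 rose (median log2 fold change -0.56), while of the 20 members with the CCAAT and homology region letters and no E2F-type match 15 rose and 2 fell (median 0.76). The remaining 14 had 4 that rose and 6 that fell. A match is a description of the letters and no measure of binding, and no match says only that these letters are not in this window.

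WT CD8SP differed from WT DP in the genes of DNA replication. The edgeR test called 21 members higher and 2 lower in WT CD8SP (background 20.8% higher and 16.9% lower). All 12 replication genes and all 4 nucleotide genes were higher, and none of the 20 anaphase, mitotic kinase and spindle genes was called. Of the 23 calls, 17 held in every fit that left out 1 library. Among the rises, those of Gmnn, Rrm2, Tyms and Cdk6 did not. Gins2 was measured at 45.9, 37.4 and 31.3 CPM in WT CD8SP, against 7.80, 13.1 and 11.5 CPM in WT DP. Mcm6 was at 872, 746 and 660 CPM in CD8SP, against 298, 286 and 254 CPM in DP. Both were higher in every CD8SP library, by 1.76 ± 0.23 and 1.39 ± 0.17 on the log2 scale (adjusted p = 0.00144 and 0.00125). Ccne1, the cyclin of the entry into S phase, rose by 1.14 ± 0.14, Cdk4 by 1.5 ± 0.18 and E2f1 by 1.33 ± 0.16.

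Ccnd2 and Ccnd3 moved in opposite directions between these stages. Ccnd2 was at 636, 591 and 299 CPM in WT CD8SP and 15.3, 16.8 and 11.7 CPM in WT DP, and rose by 5.06 ± 0.34. Ccnd3 was at 997, 788 and 1270 CPM in CD8SP and 2090, 1673 and 1607 CPM in DP, and fell by 0.87 ± 0.23 (adjusted p = 0.0204, edgeR), as did E2f2. The groups did not overlap for either cyclin. The call of Ccnd3 was lost when WT CD8SP replicate 1 or 2 was left out, and that of E2f2 with either of these or with any 1 WT DP library left out. Of the other S phase genes 28 of 30 rose, of the other G2 and M genes 3 of 39 rose, and of the brakes 0 of 12 rose and 6 fell. By promoter letters, 6 of 10 E2F-type members rose (median 0.98) and 2 of the 20 with CCAAT and homology region letters did (median 0.12). The WT CD8SP libraries still held Rag1 as given above, highest in replicate 3. All of them also held the DP marker Dntt, at 1013, 711 and 1338 CPM, against 68.7, 65.2 and 208 CPM in WT CD4SP. Their 5 mature T-cell markers summed to 1079, 1178 and 793 CPM. These sums were 1966, 1928 and 1650 CPM in WT CD4SP and 327, 234 and 238 CPM in WT DP. The part of these markers in the members' values was not tested.

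WT CD4SP held the lowest mean of most members among the WT groups. Against WT DP, 53 of the 57 members fell and 1 rose (background 20.5% lower and 23.4% higher; median log2 fold change -2.31). The phosphatase and separase genes show the size of it: Espl1, the protease that splits sister chromatids, was measured at 14.5, 14.1 and 17.2 CPM in WT CD4SP and 72.2, 89.7 and 80.4 CPM in WT DP. Cdc25b was at 29.2, 25.4 and 33.0 CPM in CD4SP and 83.6, 91.7 and 92.1 CPM in DP. They fell by 2.39 ± 0.13 and 1.59 ± 0.13 (adjusted p = 2.53e-05 and 9.6e-05, edgeR), with no overlap. The median was -0.96 over the 12 replication genes, -2.64 over the E, A, B and F cyclins and -2.59 over the spindle genes. Ccnd2 was the 1 member that rose, at 765, 783 and 1045 CPM in CD4SP against 15.3, 16.8 and 11.7 CPM in DP, by 5.90 ± 0.24 (adjusted p = 1.1e-05). Ccnd1, Cdk4 and Cdc25a did not pass the test. Of the 54 calls, 48 held in every fit that left out 1 library.

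**Figure D2:**
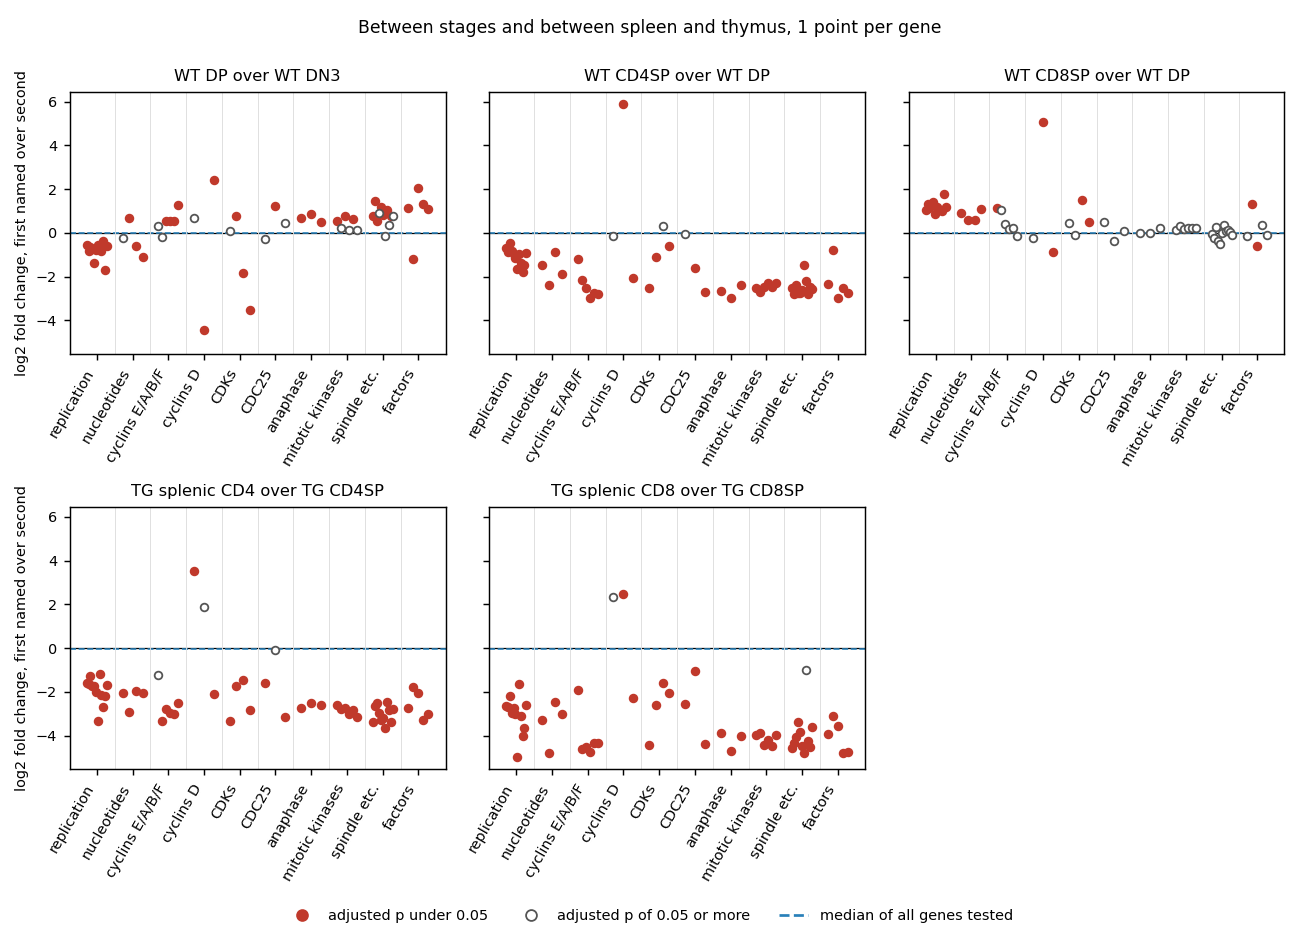
Log2 fold change between WT stages for each of the 57 members, grouped by role on the x axis, with TG spleen against TG thymus in the lower panels; filled points passed an adjusted p of 0.05 in edgeR's quasi-likelihood test, and the dashed line is the median of all genes tested. The replication genes lie below 0 in DP over DN3 and above 0 in CD8SP over DP, while in CD4SP over DP all called genes lie below 0 except Ccnd2, at 5.90.

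The question the design puts to each stage is how the transcriptome of TG cells differed from that of WT cells. At DN1, with a single WT library, the edgeR test called 0 members in either direction; it called 0% of all genes higher and 0% lower. At an unadjusted p under 0.05 it counted 0 members, and 157 of 14845 genes (1.06%), and DESeq2 called 0 members. Cdc25b was measured at 105, 112 and 85.9 CPM in TG DN1 and 72.3 CPM in WT DN1. Ccnd3 was at 576, 573 and 564 CPM in TG and 452 CPM in WT. All 3 TG libraries were above the WT library for both genes, but the log2 differences of 0.48 ± 0.30 and 0.34 ± 0.46 did not pass the test. Mki67 was at 129, 135 and 252 CPM in TG and 261 CPM in WT. No difference was detected at this stage, where WT had 1 library.

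In DN cells 3 members rose and 3 fell in TG (background 7.47% higher and 4.89% lower of 12509 genes). Cdc25b was measured at 198, 122 and 238 CPM in TG DN and 65.8, 67.7 and 75.6 CPM in WT DN. Ccnd3 was at 1114, 877 and 1050 CPM in TG and 484, 468 and 514 CPM in WT. Racgap1 was at 311, 187 and 238 CPM in TG and 122, 111 and 110 CPM in WT. No TG library overlapped a WT library, and the log2 fold changes were 1.37 ± 0.24, 1.01 ± 0.15 and 1.05 ± 0.19 (adjusted p = 0.0138, 0.00794 and 0.0159, edgeR).

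The 3 members that fell in TG DN cells were Ccne2, Cdk6 and E2f2. Ccne2, the second E-type cyclin, was at 38.1, 39.4 and 28.0 CPM in TG and 87.3, 82.6 and 52.8 CPM in WT. Cdk6 was at 573, 581 and 543 CPM in TG and 703, 779 and 944 CPM in WT. E2f2 was at 208, 200.4 and 175 CPM in TG and 241, 277 and 301 CPM in WT. They fell by 1.13 ± 0.23, 0.56 ± 0.15 and 0.54 ± 0.14 (adjusted p = 0.0226, 0.0495 and 0.0454, edgeR), without overlap. The call of Ccne2 held in 7 of 12 alternatives, that of E2f2 in 3 and that of Cdk6 in 1. Neither the 12 replication genes nor the 30 other S phase genes held a call, and of the 39 other G2 and M genes only Gtse1 did.

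The DN counts changed when single libraries were left out. Leaving out TG DN replicate 2 gave 12 members higher (13.5% of all genes), and leaving out WT DN replicate 2 gave 0 higher and 0 lower; without WT replicate 1 there was 1 higher and 0 lower, without TG replicate 1 there was 1 lower and without TG replicate 3 there were 0 lower. The suffix N stands on TG replicates 1 and 3 and on no WT DN library, and a term for it left 0 calls. WT DN replicate 3 carried erythroid markers at a sum of 16891 CPM. The stage markers differed as well. All 4 stem and DN1 markers, Lmo2 among them, were called higher. They summed to 726, 266 and 711 CPM in TG DN and 70.4, 72.6 and 71.0 CPM in WT DN. The DP marker Rag1 was at 64.0, 279 and 63.3 CPM in TG and 632, 754 and 1071 CPM in WT. It was not called (adjusted p = 0.0509, edgeR). The DP marker Dntt went the other way, at 1550, 1392 and 1327 CPM in TG and 1174, 1091 and 1052 CPM in WT, also without a call. The part of these markers in the members' values was not tested.

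In DN3 cells 3 of the 57 members were higher and 4 lower in TG, against 23.4% higher and 22.2% lower of all 12037 genes tested. Cdc25b was measured at 125, 185 and 191 CPM in TG DN3 and 39.2, 36.9 and 38.1 CPM in WT DN3, a log2 fold change of 2.13 ± 0.16 (adjusted p = 2.87e-05, edgeR). Ccnd3 was at 766, 930.4 and 775 CPM in TG and 348, 295 and 361 CPM in WT, up by 1.30 ± 0.13 (adjusted p = 0.0001). For both genes the lowest TG library was well above the highest WT library. Cdc25a, the phosphatase that activates CDK2 at the start of S phase, rose by 0.30 ± 0.11 (adjusted p = 0.0487).

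The 4 members that fell in TG DN3 cells were Tyms, Gins2, Cdk6 and Gmnn. Tyms was at 65.3, 85.0 and 60.9 CPM in TG DN3 and 153, 111 and 123 CPM in WT DN3. Gins2 was at 19.9, 23.8 and 17.7 CPM in TG and 38.9, 30.1 and 35.9 CPM in WT. Cdk6 was at 911, 952 and 835 CPM in TG and 1285, 1536 and 1292 CPM in WT. They fell by 0.87 ± 0.16, 0.77 ± 0.15 and 0.61 ± 0.12 (adjusted p = 0.00255, 0.00315 and 0.0037, edgeR), with no overlap between genotypes. Gmnn, the inhibitor of origin relicensing, fell by 0.64 ± 0.18. The MCM genes did not pass: Mcm2 was at 400.4, 450 and 332 CPM in TG and 343, 371 and 362 CPM in WT, with overlap.

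Outside the list, 11 of 30 other S phase genes were lower and 1 higher in TG DN3, among them the fork protection gene Tipin (log2 fold change -0.72), the clamp loader subunit Rfc3 (-0.55) and the origin recognition subunit Orc6 (-0.80). Of the 13 brakes 6 were higher and 3 lower. The inhibitor Cdkn1a averaged 1.75 CPM in TG and 59.5 CPM in WT, Rbl2 averaged 128.5 CPM in TG and 56.4 CPM in WT, and Cdkn2a, the locus of p16 and p19ARF, averaged 1.88 CPM in TG and 0.0241 CPM in WT. Cdc25b, Ccnd3, Cdk6, Gins2 and Tyms held their calls in every fit that left out 1 library. All 4 stem and DN1 markers were called higher in TG DN3, and of 7 DN3 markers 4 were higher and 3 lower; their part was not tested. The counts of members changed when single libraries were left out: without TG DN3 replicate 2 there were 18 members lower (18.6% of all genes), and without TG DN3 replicate 3 there were 14 higher (21.9%).

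In DP cells no member passed the test: the edgeR fit called 0 of 57 in either direction and 0% of all genes higher or lower. Of the 57, 48 had a positive log2 fold change, with a median log2 fold change of 0.54, against 0.03 over all genes tested. At an unadjusted p under 0.05 there were 28 members, against 21.0% of all genes, and 29 members had every TG library above every WT library, against 12.7% of all genes. DESeq2 called 8 members higher (2.65% of all genes). Cdc25b was measured at 179.8, 215 and 133 CPM in TG DP and 83.6, 91.7 and 92.1 CPM in WT DP. Ccnb2, a B-type cyclin, was at 185, 196 and 181 CPM in TG and 117, 116 and 109 CPM in WT. Ube2c, the ubiquitin conjugase of the anaphase promoting complex, was at 251, 294 and 232 CPM in TG and 139.6, 172 and 138 CPM in WT. These groups did not overlap, with log2 differences of 0.97 ± 0.20, 0.72 ± 0.13 and 0.78 ± 0.17 and an adjusted p of 0.213 for each (edgeR).

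The library labelled TG DP replicate 3, which lacks the Lmo2 signal, was the lowest of the TG DP libraries for Cdc25b and Ccnd3, yet lay above the WT libraries for both. Ccnd3 was at 3473, 2651 and 2263 CPM in TG DP and 2090, 1673 and 1607 CPM in WT DP. The 6 tested DN3 markers were higher in TG DP without overlap but not called, and all 7 summed to 2118, 2216 and 487 CPM in TG and 389, 398 and 386 CPM in WT; replicate 3 was again closest to WT, and the part of these markers was not tested. Without that library, 12 members passed and all were higher (4.77% of all genes), with a median of 0.61. Genes of the chromosome and kinetochore varied within both genotypes: Cenpe, a kinesin of the kinetochore, was at 41.1, 93.0 and 113 CPM in TG and 50.3, 172 and 142 CPM in WT. Mki67 was at 343, 914 and 857 CPM in TG and 399.5, 1480 and 1225 CPM in WT. One library of each genotype was low for these genes, TG replicate 1 and WT replicate 1.

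**Figure D3:**
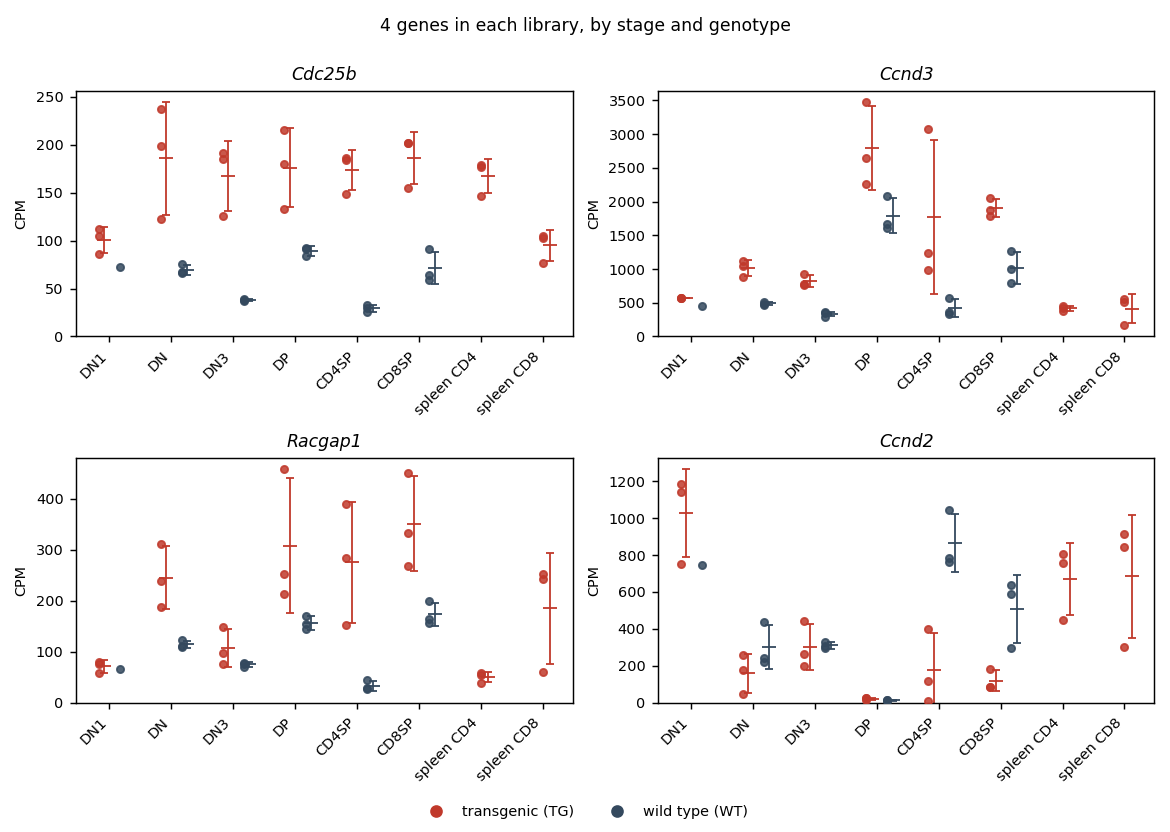
Level (y axis, CPM) of Cdc25b, Ccnd3, Racgap1 and Ccnd2 in each library, by stage and tissue, TG in red left of WT in dark blue; points are libraries and bars give the mean and SD of 3. For Cdc25b and Ccnd3 all points labelled TG, including TG DP replicate 3, which lacks the Lmo2 signal, lie above all WT points at each of the 6 thymic stages, whereas for Ccnd2 the TG points lie below the WT points in both single-positive stages.

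The largest genotype difference was at the CD4SP label, where 55 of the 57 members were higher in TG and 0 were lower (background 15% higher and 11% lower; median log2 fold change 2.28 over the members and 0.05 over all genes). All members of 8 of the 10 roles passed; Ccnd2 and Cdc25a did not. Tk1 was measured at 95.0, 55.9 and 40.2 CPM in the libraries labelled TG CD4SP and 8.25, 7.91 and 11.4 CPM in WT CD4SP. Cdt1, which loads the helicase at origins, was at 167, 151 and 121 CPM in TG and 35.6, 36.8 and 56.9 CPM in WT. These rose by 2.81 ± 0.34 and 1.78 ± 0.24 (adjusted p = 0.0071 and 0.00772, edgeR), without overlap. The replication genes had a median of 1.85.

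The mitotic kinase and checkpoint genes had a median of 2.87 and the anaphase genes one of 3.03. Cdk1, the kinase of mitotic entry, was at 117, 134 and 35.3 CPM in TG CD4SP and 9.01, 9.90 and 11.96 CPM in WT CD4SP. Ube2c was at 242, 265 and 92.4 CPM in TG and 18.4, 13.7 and 24.9 CPM in WT. Espl1 was at 117, 156 and 85.9 CPM in TG and 14.5, 14.1 and 17.2 CPM in WT. Every TG library was above every WT library, and the fold changes were 3.22 ± 0.48, 3.40 ± 0.44 and 2.99 ± 0.25 on the log2 scale. Plk1 rose by 3.02 ± 0.39, Aurka, a kinase of the spindle poles, by 2.91 ± 0.36, the spindle assembly gene Tpx2 by 3.02 ± 0.38, Racgap1 by 3.06 ± 0.38 and Mxd3, a MAX-binding repressor, by 2.97 ± 0.49. The smallest called rises were those of Cdk2 (1.06), Mcm4 (1.11) and Tyms (1.11).

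The CDC25 phosphatases and the D-type cyclins each held a member without a call. Cdc25b was at 184, 186 and 149 CPM in TG CD4SP and 29.2, 25.4 and 33.0 CPM in WT CD4SP, up by 2.59 ± 0.18, and had the smallest adjusted p of the members (0.00315, edgeR). Ccnd3 was at 992, 3080 and 1236 CPM in TG and 331, 369 and 572 CPM in WT, up by 2.08 ± 0.47. Ccnd2 was at 118, 12.3 and 400.1 CPM in TG and 765, 783 and 1045 CPM in WT. All 3 TG libraries were below WT for Ccnd2, but they ranged widely, and the log2 difference of -2.23 ± 1.02 did not pass (adjusted p = 0.142).

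The stage markers of these libraries moved with the result. The sum of 7 DP markers was 1990, 16839 and 6294 CPM in the libraries labelled TG CD4SP and 1652, 1671 and 2833 CPM in WT CD4SP, and that of 5 mature T-cell markers was 1003, 437 and 1165 CPM in TG and 1966, 1928 and 1650 CPM in WT. Of the DP markers 3 of 7 were called higher, of 7 DN3 markers 4 were called higher, and of the mature T-cell markers 1 of 5 was called lower. Of the 4 stem and DN1 markers all were called higher, and of 5 myeloid markers 2 were. Of 5 B-cell markers 4 passed the filter and were called higher; the 5 summed to 26.3, 20.4 and 59.1 CPM in TG and 3.04, 2.49 and 5.07 CPM in WT. The part of these markers in the members' difference was not tested. In WT alone, 53 of the same 57 genes were lower in CD4SP than in DP, as given above. With TG replicates 1 and 3 left out, the remaining TG library, replicate 2, which held the most DP markers, gave 53 members higher and 1 lower (background 21.5% and 21.4%), assuming that it varies as WT libraries do. Without WT replicate 1, or without WT replicate 2, 2 members were called in each case (0.240% and 0.647% of all genes), Cdc25b and Espl1 in both. Elsewhere, 28 of 30 other S phase genes and 34 of 39 other G2 and M genes were higher, and 5 of 14 brakes were.

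**Figure D4:**
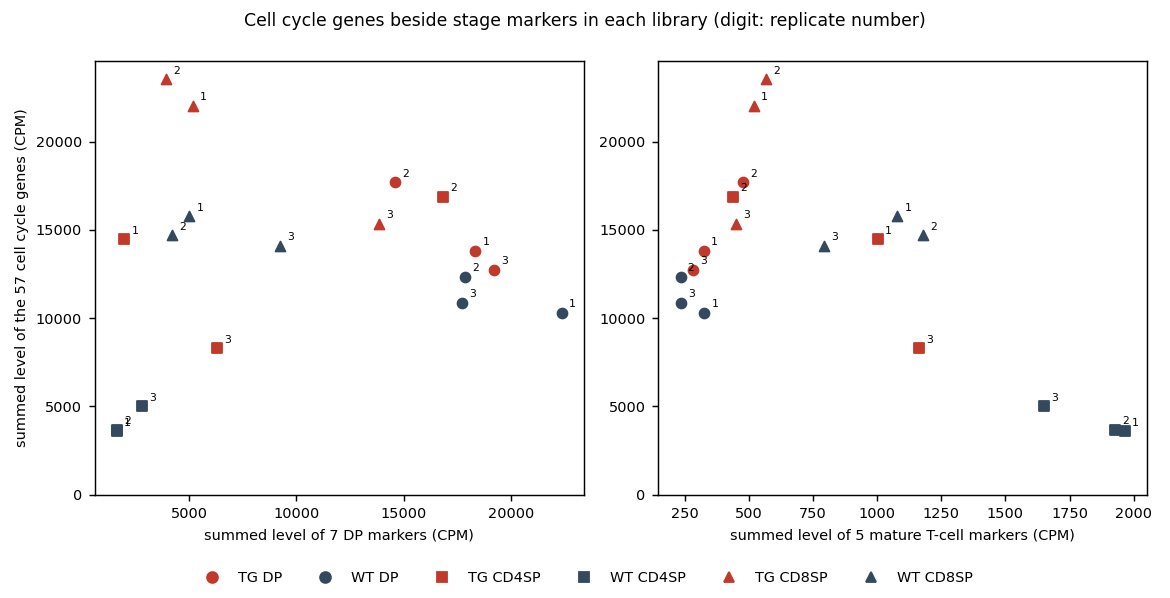
Summed level of the 57 members (y axis, CPM) against the summed level of 7 DP markers (left) and 5 mature T-cell markers (right; x axes, CPM) in the DP, CD4SP and CD8SP libraries, TG in red and WT in dark blue, with the replicate number beside each point. The libraries labelled TG CD4SP lie at 14486, 16867 and 8304 CPM on the y axis, apart from the WT CD4SP libraries, which sit lowest, at 3595, 3677 and 5022 CPM, and furthest to the right in mature markers.

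In CD8SP cells 6 members rose and 1 fell in TG (background 2.09% higher and 2.36% lower; median log2 fold change 0.47). Cdc25b was measured at 202, 202 and 154 CPM in TG CD8SP and 59.2, 64.4 and 90.8 CPM in WT CD8SP. Espl1 was at 184, 265 and 158 CPM in TG and 79.4, 105 and 107 CPM in WT. Racgap1 was at 333, 451 and 268 CPM in TG and 157, 164 and 199.5 CPM in WT. They rose by 1.38 ± 0.21, 1.06 ± 0.23 and 1.01 ± 0.22 (adjusted p = 0.0218, 0.0472 and 0.046, edgeR), without overlap. The other rises were in Plk1 (0.84 ± 0.18), Kif18b (0.84 ± 0.18) and the spindle checkpoint gene Bub1b (0.71 ± 0.15). All 6 act in G2 and mitosis, and all 6 have CCAAT and homology region letters without an E2F-type match. Of the 20 members of that promoter kind 14 were not called. None was called of the 10 members with E2F-type letters or of the 14 with neither. The promoter kinds differed less in size than in calls. The median log2 fold change was 0.57 for those 20 members, 0.43 for the 10 and 0.34 for the 14, with overlapping ranges. Whether the promoter kinds differed was not tested. As given above, CCAAT and homology region letters stood in 80% of the windows of the cyclins, mitotic kinases, anaphase and spindle genes. No call at this stage held in every fit that left out 1 library. In 24 members every TG library was above every WT library, against 11.8% of all genes.

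Ccnd2 was the member that fell. It was at 184, 86.4 and 88.0 CPM in TG CD8SP and 636, 591 and 299 CPM in WT CD8SP, lower by 2.09 ± 0.39 on the log2 scale (adjusted p = 0.0312, edgeR). Ccnd3 was at 2047, 1792 and 1873 CPM in TG and 997, 788 and 1270 CPM in WT, and its difference of 0.90 ± 0.20 did not pass (adjusted p = 0.0529). Of 5 mature T-cell markers 3 were lower in TG, where they summed to 520.4, 567 and 452 CPM, against 1079, 1178 and 793 CPM in WT. The 7 DN3 markers summed to 1520, 1459 and 1559 CPM in TG and 559.9, 621 and 594 CPM in WT, with 2 of the 7 called higher. The part of these markers was not tested.

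The CD8SP counts changed with the tool and with single libraries. DESeq2 called 20 members higher and 1 lower (5.38% and 5.29% of all genes). Without TG replicate 3 there were 21 higher and 0 lower (3.19% of all genes higher), and without the libraries numbered 3 of both genotypes, which held the most Rag1, 11 higher and 1 lower (2% and 2.07%). Leaving out TG replicate 1, WT replicate 1 or WT replicate 2 left 0 higher, TG replicate 2 left 1, and WT replicate 3 left 2; the fall of Ccnd2 was lost without TG replicate 2 or 3 or WT replicate 1 or 2.

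**Figure D5:**
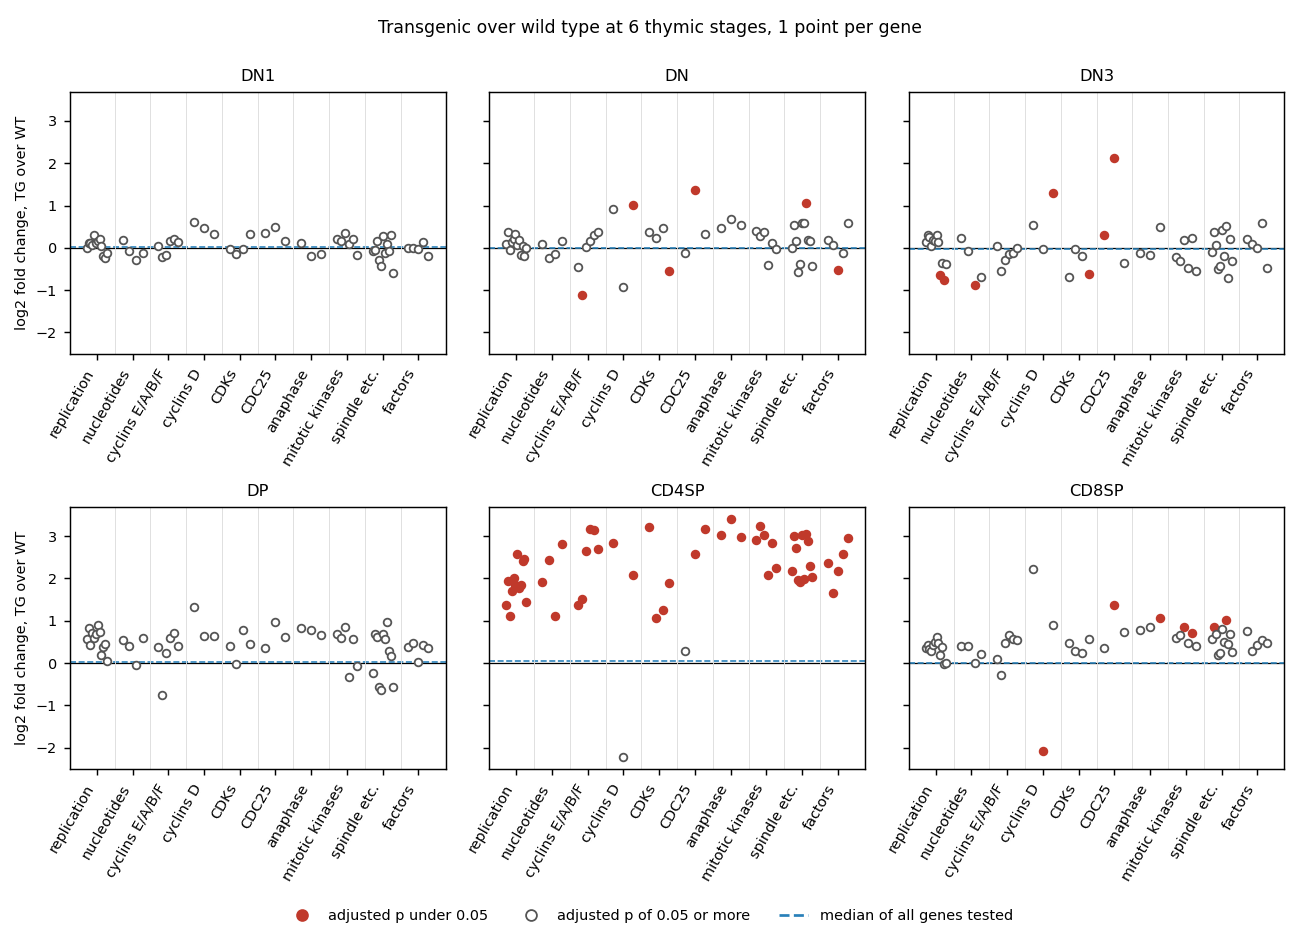
Log2 fold change of TG over WT for each of the 57 members at the 6 thymic stages, grouped by role; filled points passed an adjusted p of 0.05 in edgeR's quasi-likelihood test, and the dashed line is the median of all genes tested. At CD4SP 55 members lie above 0 and pass, at DP most lie above 0 and none passes, and Cdc25b is above 0 in all panels.

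Across stages, Cdc25b and Ccnd3 were the members in which every TG library exceeded every WT library at all 6 stages, taking the libraries by their labels: the one labelled TG DP replicate 3, without the Lmo2 signal, and those labelled TG CD4SP are counted as TG, and DN1 has 1 WT library. The share of all genes with every TG library above every WT library at all 6 stages was not counted. At DP alone it was 12.7%, and at CD8SP alone 11.8%. Cdc25b passed the test at DN, DN3, CD4SP and CD8SP, and Ccnd3 at DN, DN3 and CD4SP. Racgap1 passed at DN, CD4SP and CD8SP. Cdk6 passed as lower at DN3 and as higher at CD4SP, and at DN its call as lower was lost in 11 of 12 alternatives, and Ccnd2 passed only as lower, at CD8SP. Outside the list, Cdkn2a averaged 8.40 CPM in TG and 0.0565 CPM in WT at DN, 7.36 CPM in TG and 0.0284 CPM in WT at CD4SP, and 4.17 CPM in TG and 0.0293 CPM in WT at CD8SP, and was called higher at each of these stages and at DN3.

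Whether the genotype difference itself differed between stages was tested with an interaction term. Between CD4SP and DN3, 52 of the 57 members had a larger TG over WT fold at CD4SP and 0 a smaller one (background 15.8% and 15.1%; median difference 2.30 on the log2 scale). Birc5, the survivin subunit of the chromosomal passenger complex, differed by 3.57 ± 0.55 and Gins2 by 3.20 ± 0.50 (adjusted p = 0.00161 and 0.00165, edgeR). The 3 D-type cyclins, Cdc25a and Cdc25b were not called, Cdc25b at 0.41 ± 0.24 (adjusted p = 0.213) and Ccnd3 at 0.74 ± 0.51. These tests share the CD4SP libraries whose markers went against their label.

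Between CD4SP and CD8SP the interaction test called 0 members in either direction (0.0240% of all genes larger at CD4SP, 0.00800% smaller), although the median difference was 1.75. At an unadjusted p under 0.05 there were 53 members, against 16.5% of all genes, and DESeq2 called 42 (3.97% of all genes). Aurkb, the kinase of the passenger complex, differed by 2.56 ± 0.49 (adjusted p = 0.0605, edgeR) and Tk1 by 2.57 ± 0.42 (adjusted p = 0.0569). Without TG CD4SP replicate 3 the edgeR test called 47 members (3.59% of all genes).

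TG splenic cells were set against TG single-positive thymocytes. In splenic CD8 cells 54 members were lower and 1 was higher than in TG CD8SP (background 20.1% lower and 17.2% higher; median log2 fold change -3.89). Stmn1 was measured at 39.9, 45.8 and 36.5 CPM in splenic CD8 and 1034, 1314 and 918 CPM in CD8SP libraries. Rrm2 was at 29.1, 27.2 and 20.9 CPM in the spleen and 797, 777 and 523 CPM in the thymus. Plk1 was at 12.1, 12.7 and 8.70 CPM in the spleen and 234, 274 and 180.2 CPM in the thymus. They fell by 4.80 ± 0.25, 4.82 ± 0.27 and 4.42 ± 0.26 (adjusted p = 0.000496, 0.000496 and 0.000497, edgeR), with no overlap between spleen and thymus.

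Ccnd2 was the member that rose in the spleen, with 302, 843 and 912 CPM in splenic CD8 and 184, 86.4 and 88.0 CPM in CD8SP libraries (2.46 ± 0.51, adjusted p = 0.0128, edgeR). Racgap1 was at 59.5, 253 and 242 CPM in the spleen and 333, 451 and 268 CPM in the thymus and was not called (-0.99 ± 0.53). Splenic replicate 1 was the low one for Ccnd2 and Racgap1; it also had the least Cd8a, with 435, 1519 and 1507 CPM in the splenic libraries 1, 2 and 3, and the most myeloid markers, with sums of 2783, 118 and 135 CPM; their part was not tested. The rise of Ccnd2 was lost without TG CD8SP replicate 3. All 54 falls held in every fit that left out 1 library, and all 30 other S phase genes fell as well.

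In splenic CD4 cells 53 members were lower and 1 higher than in the libraries labelled TG CD4SP (background 12% lower and 12.5% higher; median -2.62). Stmn1 was at 72.6, 72.5 and 57.9 CPM in splenic CD4 and 1045, 944 and 493 CPM in the CD4SP libraries. Cdc6, a loader of the helicase, was at 13.9, 14.5 and 6.61 CPM in the spleen and 149, 126 and 72.2 CPM in the thymus. They fell by 3.64 ± 0.33 and 3.34 ± 0.42 (adjusted p = 0.00473 and 0.00826, edgeR), without overlap. The phosphatase did not follow: Cdc25b was at 179, 177 and 146 CPM in the spleen and 184, 186 and 149 CPM in the thymus, a difference of -0.08 ± 0.18.

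Ccnd1, a D-type cyclin that averaged 5.14 CPM or less in each WT group after DN1, was at 229.9, 199.8 and 93.5 CPM in splenic CD4 and 13.7, 2.39 and 28.5 CPM in TG CD4SP libraries, and rose by 3.51 ± 0.87 (adjusted p = 0.0319, edgeR). The splenic libraries also held B-cell markers at the sums given above, with all 5 B-cell markers and 4 of 5 myeloid markers called higher than in TG CD4SP. Of 4 erythroid markers 3 were called higher, with sums of 1738, 802 and 42995 CPM in the spleen and 194, 67.1 and 249 CPM in TG CD4SP, the most in splenic replicate 3. The part of these markers in the Ccnd1 value was not tested. The call of Ccnd1 was lost when TG CD4SP replicate 1 or any 1 splenic library was left out. The falls numbered 14 without splenic replicate 1 (2.01% of all genes) and 19 without splenic replicate 2 (2.51%).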

How the data were processed

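The deposited table gives, per gene and library, read counts and FPKM (fragments scaled by transcript length and library size), both made by the authors, per the file headers. Per the submitters' processing notes, mm9 and mm10 were the builds and MACS2, Bowtie2, HISAT and DESeq2 the tools, with no role stated for any; the counting tool, the strand setting and what was done with reads that match several places were not given in the sources used here, so reads of pseudogenes or antisense genes cannot be told from a member's own. Counts were tested as deposited; FPKM served only to compare levels between genes. Of the per-sample columns, 4 matched no sample label and were not used, and the peak lists were not analysed here.

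Low counts were filtered out by edgeR's filterByExpr (10 as the minimum count, 15 as the minimum total), TMM gave the scaling, and edgeR's quasi-likelihood test (edgeR 4.0.16, R 4.3.3) was fitted to the groups compared, with Benjamini-Hochberg adjustment over all genes tested and a threshold of 0.05; the DN1 comparison took its spread from all libraries. CPM use TMM-scaled totals. The code was tested on simulated counts. Each group is a genotype and stage as labelled. No 2 libraries of a group were identical, but some were much closer than others by chi-square per gene of their counts. WT CD4SP replicates 1 and 2 gave 6.625, against 70.17 and 56.25 for either with replicate 3. TG splenic CD4 replicates 1 and 2 gave 14.26, against 195.7 and 196.3. Close pairs stood in other groups too. WT DP replicates 2 and 3 gave 8.102, against 117.7 and 120.2 for either with replicate 1. TG splenic CD8 replicates 2 and 3 gave 9.562, against 283.2 and 362.7. Calls in TG against WT CD4SP and in splenic CD4 fell most when 1 library of their own close pair was left out. In splenic CD8, all 55 calls held without replicate 2 and without replicate 3. Of 43 calls in WT DP against WT DN3, 34 held without WT DP replicate 2, and 34 without replicate 3. Whether this closeness bears on the calls was not tested. Replicate numbers are shared between groups. The series' design text calls the samples of a stage paired, without saying by what, and no label ties a number to an animal or day. Pairing was taken to hold where same-numbered libraries deviated together with a correlation over 0.1 in all 3 pairs; no comparison reached this, so the main test has no block. Named members are the up to 2 of each role with the smallest p (mean of at least 5 CPM) and called members that go against the majority; values in every library are printed for those the results turn on, and genes outside this rule were chosen after their values were seen. The members and all gene lists were chosen with earlier results of these data known. Alternatives were DESeq2 1.42.0, RLE scaling, no filter, a term for the column suffix N, a replicate block, 1 fit of all 40 libraries and leaving out libraries. The fits without TG CD4SP replicates 1 and 3 in the spleen and interaction comparisons, and without the CD8SP libraries numbered 3, were added after seeing the data. Promoter windows came from the RefSeq table (first listed window per gene).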

Additional observations from a re-analysis of the deposited data

Results flagged for a closer look

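The genotype difference differed between stages for 52 members by the interaction term between CD4SP and DN3, all with the larger TG over WT fold at CD4SP; the libraries labelled TG CD4SP carry the marker levels given in the report, whose part was not tested.

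The kinase gene Cdk6 had every TG library on 1 side of WT in opposite directions at these stages: its log2 fold change was 1.89 at CD4SP and -0.56 at DN. The factor gene E2f2 did the same, with 2.17 at CD4SP and -0.54 at DN. The DN call of Cdk6 held in 1 of 12 alternatives and that of E2f2 in 3. The CD4SP values rest on the libraries labelled TG CD4SP, whose markers went against their label. The difference between these 2 stages was not tested.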

How the results depend on the processing

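No named member called in the main fit or in the alternative had opposite directions in the 2 fits. Changes of sign without a call in either fit were not counted. DESeq2 gave 8 members higher in DN, 6 higher and 7 lower in DN3, 8 higher in DP, 20 higher in CD8SP, 2 higher in splenic CD8, and 42 in the CD4SP minus CD8SP interaction. A single fit of all 40 libraries gave 0 lower in DN, 1 lower in DN3, 2 higher in DP, 1 lower in CD4SP, 2 higher and 0 lower in CD8SP, 12 higher and 13 lower in WT DP against WT DN3 (25 and 18 in the fit of those groups alone), 0 lower in WT CD8SP against WT DP, 2 higher in splenic CD4 and 2 in splenic CD8, and 37 in the CD4SP minus CD8SP interaction. Without the low-count filter there was 1 lower in DN and 3 in that interaction. A term for the suffix N gave 0 higher and 0 lower in DN, 1 lower in CD4SP, 1 higher and 0 lower in CD8SP, and 1 lower in the CD4SP minus DN3 interaction. Without TG CD4SP replicates 1 and 3, which keeps replicate 2 with its DP markers, there was 1 lower in CD4SP, 2 higher in splenic CD4, 46 higher and 1 lower in the CD4SP minus CD8SP interaction and 1 lower in the CD4SP minus DN3 interaction. Without the libraries numbered 3 there were 11 higher in CD8SP. The cause of these shifts was not tested. Where the results above give no share, the share of all genes called in these fits was not counted. The same holds for the fits with a replicate block or with single libraries left out, given below. Without that share, a change in called members cannot be told from a change in calls over all genes.

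The replicate block gave 1 lower in DN, 9 lower in DN3, 41 higher in CD4SP, and 0 higher in both spleen comparisons; in DN (correlations of 0.086, 0.104 and 0.203) and in WT CD8SP against WT DP (0.457, 0.486 and 0.087) each library matched its own number best, a hint from the data only.

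Leaving out 1 library at a time, members higher and lower ranged over 0 to 12 and 0 to 2 in DN, 2 to 14 and 3 to 18 in DN3, 0 to 12 and 0 in DP, 2 to 54 and 0 to 1 in CD4SP, and 0 to 21 and 0 to 1 in CD8SP. The ranges were 18 to 31 and 13 to 19 in WT DP against WT DN3, 1 and 47 to 53 in WT CD4SP against WT DP, 17 to 24 and 0 to 3 in WT CD8SP against WT DP, 0 to 1 and 14 to 54 in splenic CD4, 0 to 2 and 54 in splenic CD8, 0 to 47 and 0 in the CD4SP minus CD8SP interaction, and 47 to 52 and 0 to 1 in the CD4SP minus DN3 interaction. DN1 without its WT library, and DN3 with a suffix N term, could not be fitted. All members passed the low-count filter; the number of libraries, 1 for WT DN1, limits the tests.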
